A study of Sus scrofa with 4 samples.

Results

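The 28 genes described here encode enzymes that build cholesterol from acetyl-CoA, proteins that sense sterols and switch these enzymes on, a sterol carrier and 4 enzymes of fatty acid synthesis. They were chosen by name: 26 were found by the gene identifier in the deposited tables, and IDI1 and INSIG2 by their gene name. All 28 were among the 26921 genes or loci measured, and all 28 passed the filter on low counts that left 15763 genes to test. The study measured mRNA in 4 libraries of cultured pig testis cells, labelled as immature spermatogonia, which are early male germ cells. The 2 control libraries carry the genotype label WT and the 2 others the label ZBTB16 knockdown. ZBTB16, also called PLZF, is a zinc finger transcription factor known for its part in the self-renewal of spermatogonia. The design text plans the knockdown with a lentiviral short hairpin RNA in primary cells, and the labels do not say whether the control cells received a virus, so an effect of the virus and of the knockdown cannot be told apart. The 2 libraries of a group are given as independent experiments. The age of the pigs and the number of animals behind the cultures are not given, so p-values measure the spread between these libraries.

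Cells make cholesterol in a long chain of steps: acetyl-CoA becomes mevalonate, mevalonate becomes isoprenoid units, these join to squalene, squalene closes to the first sterol, lanosterol, and lanosterol is trimmed to cholesterol. The transcription factors SREBP1 and SREBP2 drive the genes of this chain and of fatty acid synthesis. When sterols are scarce, SCAP carries them from the endoplasmic reticulum to the Golgi to be cut and released, and when sterols are plentiful, INSIG proteins hold SCAP back. In the testis, cholesterol is used for cell membranes and, in Leydig cells, for testosterone.

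The libraries held between 15983390 and 18500447 expected counts. ZBTB16 itself had 226 and 207 counts with the control label and 188 and 163 with the knockdown label, and fell to 0.779 of control (log2 difference -0.36, SE 0.11, edgeR adjusted p = 0.00338). DESeq2 did not call it (adjusted p = 0.0854). Markers of the labelled cell type spanned a wide range, and several that define germ cells were low: the germ cell genes DDX4 and DAZL lay between 2.64 and 5.29 TPM (a level per transcript length) and SALL4 at or under 0.81 TPM in every library, while UCHL1 lay between 135 and 165 TPM and ID4 and ITGA6 between 33.1 and 48.8 TPM. Of the Sertoli cell markers CLDN11 lay between 769 and 1139 TPM and AMH between 11.3 and 16.1 TPM, and ACTA2 of smooth muscle and peritubular cells lay between 4308 and 5525 TPM. The summed TPM of 11 germ cell markers was 262 to 265 in both groups, with 4 higher (among them SALL4, at a log2 difference of 1.02, and DAZL, 0.54) and 4 lower (among them DND1, -1.27, and UCHL1, -0.33) by edgeR. The sum of 8 Sertoli markers was 1035 and 1055 TPM in control and 1486 and 1531 TPM in knockdown libraries, with 5 higher and 2 lower by edgeR, and that of 5 peritubular markers was 7145 and 7284 TPM against 8100 and 8236 TPM, with 4 higher and 1 lower. The sum of 7 Leydig cell markers was 323 to 340 TPM, with CYP11A1 between 213 and 238 TPM and STAR and CYP17A1 at or under 0.6 TPM; 2 were lower, INSL3 (-0.72) and NR5A1 (-0.44), and 0 higher. The 6 macrophage markers summed to 35.9 to 50.5 TPM (3 lower), the 4 endothelial markers to 13.6 to 16.2 TPM (0 called by edgeR or DESeq2, and 0 at an unadjusted p under 0.05) and the 5 adipocyte markers to 1.31 to 3.53 TPM (1 lower, 3 at 0 in a library). On the TPM scale the median log2 difference of all genes, knockdown over control, was 0.14, and all these sums are read against that shift. The part of the marker shifts in the values of the 28 genes was not tested, and in bulk RNA fewer cells of a type and less RNA per cell cannot be told apart. In edgeR's quasi-likelihood test 46.4% of all genes tested differed between the groups, 23.8% lower and 22.7% higher in the knockdown.

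Most of the 28 genes were lower in the knockdown: 19 fell, 4 rose (SC5D, SCAP, STARD4 and FASN) and 5 were not called (CYP51, TM7SF2, DHCR7, SREBF1 and SREBF2). Their median log2 difference was -0.20, against 0.00 over all genes tested. The changes were small beside the levels; the range ran from -0.93 for PMVK to 0.15 for STARD4. On normalised counts (CPM, scaled to library size with TMM factors), both knockdown libraries lay below both control libraries for 20 of the 28 genes and above them for 5, against 35.4% and 35.2% of all genes tested. The 28 genes together took 0.492% of the counts in each control library and 0.43% in each knockdown library.

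The genes differed in place along the chain. All 10 enzymes from acetyl-CoA to lanosterol fell, with a median log2 difference of -0.33 and a range of -0.93 to -0.17. Of the 8 enzymes after lanosterol, 4 fell, 1 rose and 3 were not called, with a median of -0.09. The split at lanosterol divides the 11 squalene and sterol enzymes. Together these held 7 lower, 1 higher and 3 not called, with a median of -0.17. The 5 regulators and the carrier together held 2 lower, 2 higher and 2 not called, and of the 4 enzymes of fatty acid synthesis 3 fell and 1 rose. Beside these counts, 23.8% of all genes tested were lower and 22.7% higher.

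**Figure D1:**
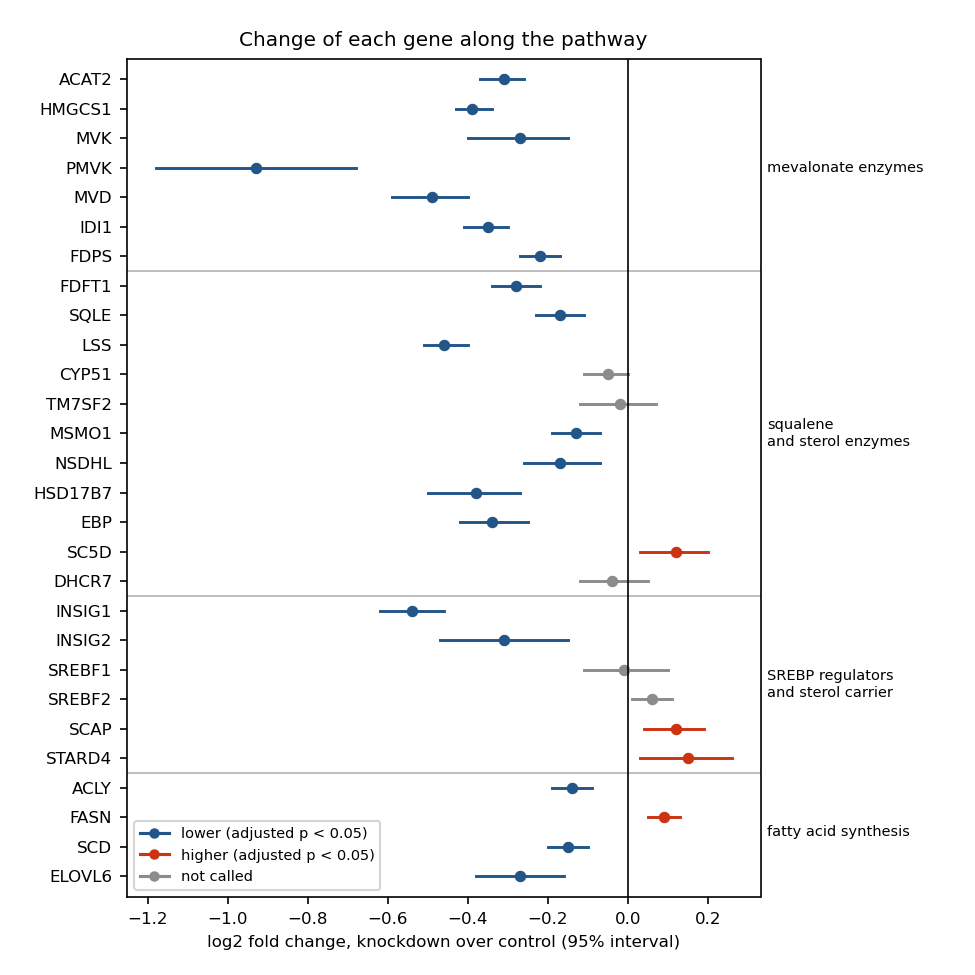
Log2 difference of each of the 28 genes between knockdown and control by edgeR (horizontal axis; points, with bars for the 95% interval), ordered along the pathway and grouped by role. The 10 genes from ACAT2 to LSS all lie left of 0, between -0.93 and -0.17, while the genes from CYP51 onward lie on both sides.

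The stretches before the gene starts of 3 of these genes are shown because SREBP proteins act through sterol response elements there, and because they set a gene that fell early in the chain (HMGCS1), the sterol sensor that fell (INSIG1) and the factor that was not called (SREBF2) side by side. Each is the 250 bases before the annotated start in the RefSeq annotation of Sscrofa11.1, on the minus strand: chr16:27957262-27957511 for HMGCS1, chr18:2898759-2899008 for INSIG1 and chr5:6784725-6784974 for SREBF2. Capitals mark exact matches on either strand to the letters TCACNCCAC of a sterol response element, CCAAT of an NF-Y box (ATTGG on the other strand) and CACGTG of an E-box.
HMGCS1: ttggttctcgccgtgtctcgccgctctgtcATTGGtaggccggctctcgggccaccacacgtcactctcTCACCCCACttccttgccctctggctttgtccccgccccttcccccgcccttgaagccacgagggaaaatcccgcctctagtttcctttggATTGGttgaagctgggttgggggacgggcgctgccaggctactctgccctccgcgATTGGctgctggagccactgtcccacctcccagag
INSIG1: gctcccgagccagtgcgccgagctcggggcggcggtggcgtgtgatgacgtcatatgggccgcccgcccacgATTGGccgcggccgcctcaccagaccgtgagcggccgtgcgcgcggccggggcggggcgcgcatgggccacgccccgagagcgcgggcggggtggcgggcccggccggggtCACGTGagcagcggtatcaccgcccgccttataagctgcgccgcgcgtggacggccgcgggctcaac
SREBF2: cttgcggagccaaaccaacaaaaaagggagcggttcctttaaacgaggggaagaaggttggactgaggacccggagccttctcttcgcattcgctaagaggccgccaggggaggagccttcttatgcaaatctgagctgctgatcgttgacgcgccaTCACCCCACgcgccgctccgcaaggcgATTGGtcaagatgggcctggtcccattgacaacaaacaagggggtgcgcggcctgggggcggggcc

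HMGCS1 and SREBF2 held the sterol response letters, at 181 and 93 bases before the start, each followed by at least 1 NF-Y box nearer the start. INSIG1 held an E-box at 67 bases and an NF-Y box at 178 bases before the start, and no match to TCACNCCAC. In windows of 250 bases before to 50 after the start, TCACNCCAC was found in 3 of the 28 genes (10.7%) and in 0.876% of 20656 protein-coding genes. CCAAT was found in 22 of 28 (78.6%) against 35.7% of all, GGGCGG, the letters of an Sp1 box, in 23 of 28 (82.1%) against 48.9%, and CACGTG in 5 of 28 (17.9%) against 7.64%. The 20656 genes were not limited to those tested here, while all 28 genes passed the filter on low counts. Both strands were searched, overlapping matches of different motifs were each counted, and a match describes letters, not a bound site.

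The 7 enzymes of the mevalonate part all fell, with a median log2 difference of -0.35. ACAT2 joins acetyl-CoA units to acetoacetyl-CoA at the head of the chain. It had 296 and 290 CPM in control and 239 and 232 CPM in knockdown libraries, a log2 difference of -0.31 (SE 0.027, edgeR adjusted p = 6.72e-22). The groups were well apart, although ACAT2 overlaps TCP1 in the annotation and the sources used here do not say whether counting used strand.

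HMGCS1 makes HMG-CoA, the precursor of mevalonate, and was the most counted of the 28 genes in the control. Its levels were 480 and 483 CPM in control and 367 and 369 CPM in knockdown libraries. Replicates differed by a few CPM and the groups by more than 100, a log2 difference of -0.39 (SE 0.023, edgeR adjusted p = 3.76e-36). The gene lies at chr16:27936225-27957261.

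MVK and PMVK phosphorylate mevalonate in turn, and MVD removes carbon dioxide to give the first isoprenoid unit. MVK had 40.6 and 37.7 CPM in control and 32.9 and 31.9 CPM in knockdown libraries (log2 difference -0.27, SE 0.062, edgeR adjusted p = 8.94e-05). PMVK, at chr4:94861500-94913743, had 12.4 and 10.7 CPM against 5.88 and 6.27 CPM, which is 0.525 of control (log2 difference -0.93, SE 0.13, edgeR adjusted p = 1.29e-10). PMVK had the widest fall and also the lowest counts of the 28 genes, from 103 to 215 per library, and is the shortest at 1054 bases; it overlaps KCNN3 in the annotation. MVD had 68.7 and 73.3 CPM in control and 51.7 and 48.9 CPM in knockdown libraries, or 0.71 of control (log2 difference -0.49, SE 0.05, edgeR adjusted p = 3.17e-17).

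IDI1 converts the first isoprenoid unit into its reactive partner, and FDPS joins the units to farnesyl diphosphate, from which sterols and protein prenyl groups are made. IDI1 had 239 and 247 CPM in control and 190 CPM in each knockdown library (log2 difference -0.35, SE 0.029, edgeR adjusted p = 2.62e-23). Its expected counts were not whole in any library, so reads were shared with other loci. FDPS, the highest of the 28 genes per length at 532 TPM in control and 506 TPM in knockdown, had 402 and 401 CPM against 347 and 342 CPM (log2 difference -0.22, SE 0.024, edgeR adjusted p = 1.44e-15).

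FDFT1, SQLE and LSS take farnesyl diphosphate to lanosterol: FDFT1 makes squalene, SQLE adds oxygen to it and LSS closes the rings. LSS, on an unplaced scaffold of the assembly, had 268 and 258 CPM in control and 194 and 189 CPM in knockdown libraries, 0.729 of control (log2 difference -0.46, SE 0.029, edgeR adjusted p = 3.31e-33). FDFT1 had 204 and 206 CPM against 168 and 170 CPM (log2 difference -0.28, SE 0.031, edgeR adjusted p = 3.63e-15). SQLE had 210 and 224 CPM against 191 and 193 CPM, the least change of the 10 early enzymes (log2 difference -0.17, SE 0.03, edgeR adjusted p = 2.27e-07). All 3 had both knockdown libraries below both controls.

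After lanosterol the genes did not move together. HSD17B7, which reduces a keto group of the sterol ring, fell from 47.6 and 47.2 CPM to 36.9 and 35.8 CPM (log2 difference -0.38, edgeR adjusted p = 3.87e-09). EBP, which shifts a double bond in the ring, fell from 90.1 and 89.3 CPM to 70.1 and 71.9 CPM (log2 difference -0.34, edgeR adjusted p = 1.1e-11). These were the larger falls of this stretch, and in both genes the groups were far apart beside the spread of replicates.

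NSDHL and MSMO1 work with HSD17B7 in removing methyl groups from the ring. NSDHL had 74.5 and 71.2 CPM in control and 67 and 62.7 CPM in knockdown libraries (log2 difference -0.17, edgeR adjusted p = 0.0015), and MSMO1 had 213 and 211 CPM against 188 and 201 CPM (log2 difference -0.13, edgeR adjusted p = 0.000156). In each gene the gap between the nearest libraries of the groups was smaller than the wider of the gaps between replicates. DESeq2 did not call NSDHL (adjusted p = 0.0531). MSMO1 was not called without knockdown replicate 1 (edgeR adjusted p = 0.0664), and NSDHL was not called without control replicate 1 (0.064) or knockdown replicate 2 (0.078), by the same test.

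CYP51, which removes the first methyl group of lanosterol, had 245 and 244 CPM in control and 234 and 238 CPM in knockdown libraries (log2 difference -0.05, 95% interval -0.11 to 0.00, edgeR adjusted p = 0.124). TM7SF2, a sterol reductase that acts next to it, had 63.9 and 63 CPM against 61.5 and 63.5 CPM (log2 difference -0.02, 95% interval -0.12 to 0.07). DHCR7, the reductase of a last step, had 79.2 and 81.9 CPM against 80.5 and 76.1 CPM (log2 difference -0.04, 95% interval -0.12 to 0.05). These intervals leave out falls as large as those of HSD17B7 and EBP. SC5D, a sterol desaturase, rose from 77.8 and 77.7 CPM to 83.8 and 85 CPM (log2 difference 0.12, edgeR adjusted p = 0.0192), and was not called when any single library was left out (edgeR adjusted p from 0.0508 to 0.106). SC5D had expected counts that were not whole in any library and overlaps another annotated locus.

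The regulators moved in different directions. INSIG1, which retains SCAP when sterols are plentiful and is itself a well-known SREBP target, had 113 and 111 CPM in control and 79.4 and 74.3 CPM in knockdown libraries. This was 0.686 of control, next to PMVK the largest fall of the 28 genes (log2 difference -0.54, 95% interval -0.62 to -0.46, edgeR adjusted p = 1.02e-25). INSIG2, its relative, had 22.7 and 24.2 CPM against 17.2 and 20.8 CPM (log2 difference -0.31, edgeR adjusted p = 0.0007). The call leaned on knockdown replicate 1: without it the difference was -0.17. INSIG2 was not called by DESeq2 (adjusted p = 0.0565), nor by limma on log2(FPKM + 1) (adjusted p = 0.102) or log2(TPM + 1) (adjusted p = 0.302).

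SREBF1 and SREBF2 encode the SREBP factors, and their messages were not called in the main edgeR test. SREBF1 had 54.8 and 56.3 CPM in control and 57.5 and 52.9 CPM in knockdown libraries, which overlap (log2 difference -0.01, 95% interval -0.11 to 0.10). SREBF2 had 301 and 298 CPM against 319 and 303 CPM, both knockdown libraries above both controls by little (log2 difference 0.06, 95% interval 0.01 to 0.11, edgeR adjusted p = 0.0639), and was called higher without knockdown replicate 2 (0.09, edgeR adjusted p = 0.00824). With effective lengths as an offset SREBF2 was called higher too (0.07, edgeR adjusted p = 0.0344), as it was with RLE scaling (0.06, edgeR adjusted p = 0.0491). On TPM limma called both higher, SREBF2 at 0.24 (adjusted p = 0.0189) and SREBF1 at 0.20 (adjusted p = 0.0483). The median of all genes on TPM was 0.14. SREBF2 exceeded SREBF1 per length in both groups, at 84.8 against 19.4 TPM in control. Message levels do not show how much SREBP is cut and active.

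SCAP, the escort of the SREBP factors, rose from 114 and 110 CPM to 124 and 119 CPM (log2 difference 0.12, edgeR adjusted p = 0.00555). STARD4, a carrier that moves cholesterol between membranes, rose from 39.2 and 41 CPM to 43 and 45.9 CPM (log2 difference 0.15, edgeR adjusted p = 0.026). Both rises depended on single libraries: SCAP was not called without control replicate 2 (edgeR adjusted p = 0.111) or knockdown replicate 1 (0.154), and STARD4 was not called without control replicate 1 (0.24) or knockdown replicate 2 (0.251). STARD4 overlaps another annotated locus.

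Of the genes for fatty acid synthesis, FASN, the multi-domain enzyme that builds palmitate, rose slightly while the 3 others fell. FASN had 444 and 443 CPM in control and 470 and 474 CPM in knockdown libraries (log2 difference 0.09, 95% interval 0.05 to 0.13, edgeR adjusted p = 0.000295). ACLY, which splits citrate to supply acetyl-CoA, had 327 and 334 CPM against 292 and 308 CPM (log2 difference -0.14, edgeR adjusted p = 7.3e-07). In each of these genes the libraries of the groups did not overlap, but the shifts were under 0.15 on the log2 scale.

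SCD, which puts the first double bond into saturated fatty acids, had 313 and 312 CPM in control and 279 and 285 CPM in knockdown libraries (log2 difference -0.15, edgeR adjusted p = 1.49e-07). ELOVL6, which lengthens palmitate, had 50.5 and 49.8 CPM against 41.9 and 41.3 CPM (log2 difference -0.27, edgeR adjusted p = 1.15e-05). ELOVL6 had the larger fall of this pair and was among the lowest of the 28 genes per length, at 14.8 and 14 TPM; it overlaps another annotated locus.

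**Figure D2:**
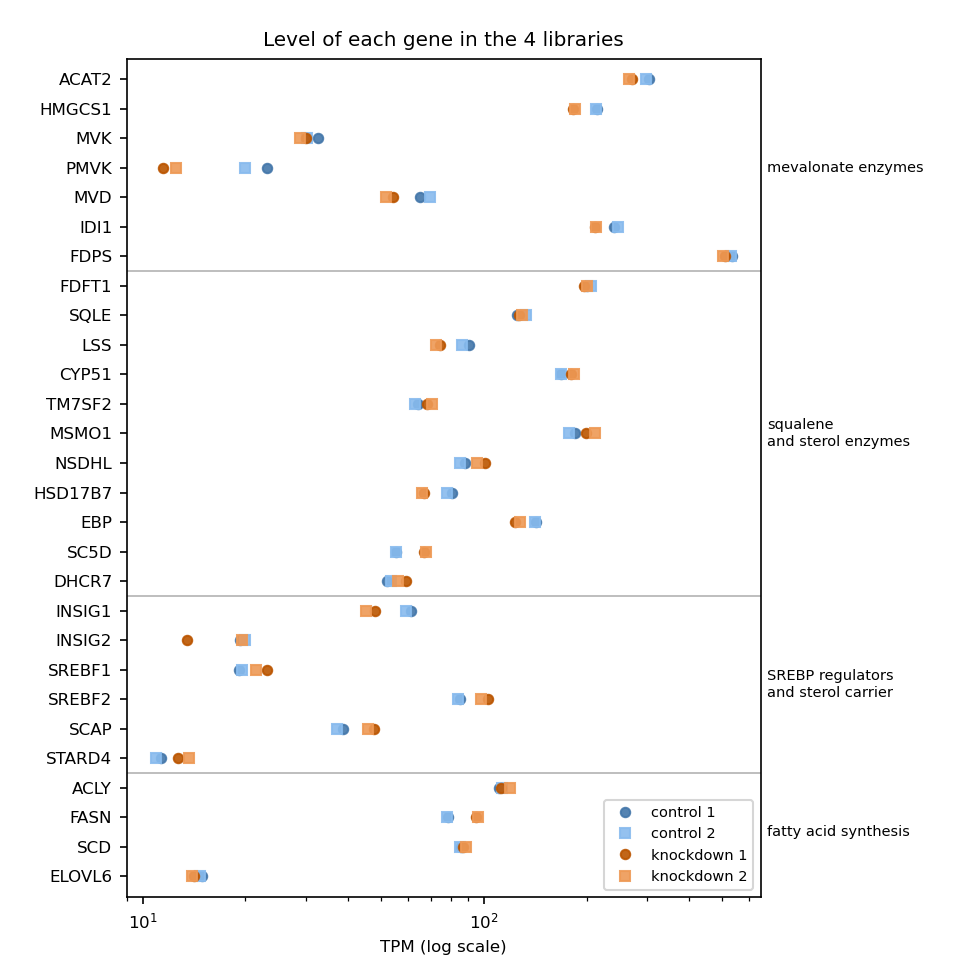
TPM of each of the 28 genes in each library (horizontal log axis; control in blue, knockdown in orange, circles for replicate 1 and squares for replicate 2). Levels run from 532 TPM for FDPS to 11.1 TPM for STARD4 in the control mean, and for PMVK and INSIG1 the knockdown points lie clear to the left of the control points.

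Per length, the order of the genes changed little: FDPS, ACAT2 and IDI1 were highest in both groups, and PMVK, ELOVL6 and STARD4 were lowest in the knockdown. FDFT1 and HMGCS1 were neighbours, at 203 and 214 TPM in control and 198 and 183 TPM in knockdown. The summed TPM of the 10 enzymes up to lanosterol was 1832 and 1835 in control and 1668 and 1661 in knockdown libraries, while that of the 8 enzymes after it was 836 and 822 against 863 and 880. The fatty acid genes summed to 290 and 291 TPM against 308 and 317 TPM. On the TPM scale the median log2 difference of all genes was 0.14, against 0.00 in normalised counts, and the sums are read against that shift.

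Transcript length moved with the difference between the groups. The mean fragment length was 326 and 327 bases in control and 266 and 267 bases in knockdown libraries, and over 15763 genes the log2 difference and the transcript length had a Spearman correlation of 0.37, short transcripts tending to be lower in the knockdown. Over the 28 genes it was 0.49, given as a description since the genes share the same 4 libraries. The 28 genes had a median length of 2265 bases against 3077 bases for all genes tested. With this trend removed by an offset within each library, 17 of the 28 genes were lower and 2 higher, against 21% and 19.9% of all genes, and the median became -0.15. With trends on length and GC content both removed, 14 were lower and 5 higher, against 19.4% and 19.8%, and the median was -0.11. Mean fragment length split fully by group, so a difference in fragment length and an effect of the knockdown cannot be told apart. The offsets remove a trend over genes and do not separate them.

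**Figure D3:**
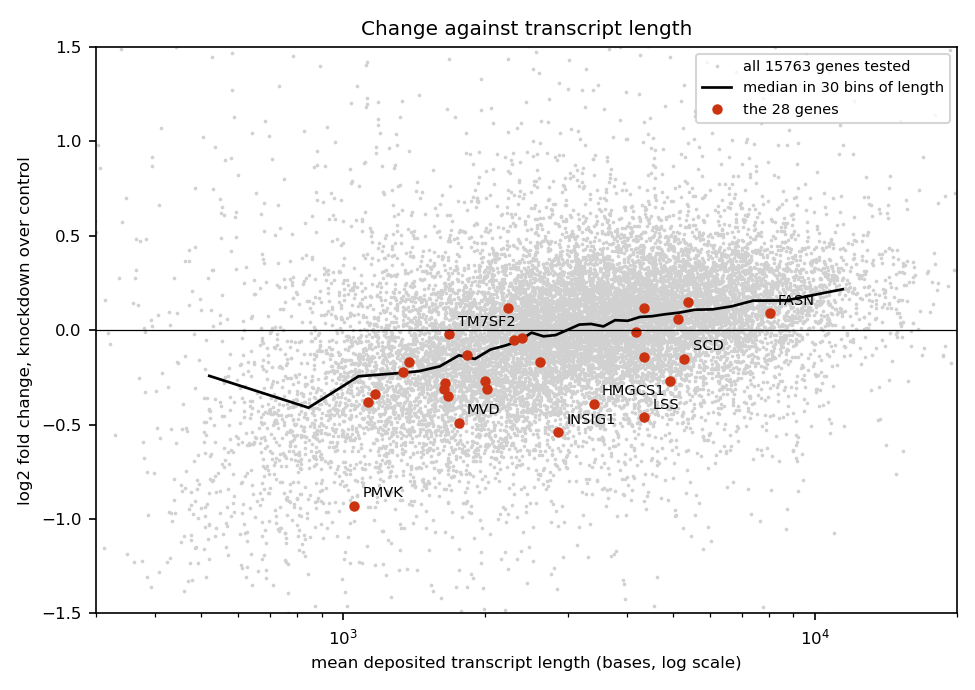
Log2 difference by edgeR (vertical axis) against mean deposited transcript length in bases (horizontal log axis) for all 15763 genes tested (grey), with the median in 30 bins of length (line) and the 28 genes (red); 257 genes lie outside the axes. HMGCS1, LSS and INSIG1 lie well below the line at their length, while TM7SF2 lies above it.

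Of the 10 enzymes up to lanosterol, 9 were called lower with the length trend removed (median -0.17) and 8 with length and GC trends removed (median -0.20). Of the 4 enzymes of fatty acid synthesis, 4 were lower with the length trend removed (median -0.22), and 3 were lower and 1 higher with both removed (median -0.20). FDPS was the gene that lost its call under the length correction (-0.04, edgeR adjusted p = 0.14), and MVK (-0.09, edgeR adjusted p = 0.198) and FDPS (0.01, edgeR adjusted p = 0.777) under the correction for both. After lanosterol, 2 genes were higher and 2 lower with the length trend removed, and 3 higher and 1 lower with both. HSD17B7 was at -0.19 and -0.17, called in each, and EBP at -0.15 and -0.10, where the second was not called (edgeR adjusted p = 0.0622). TM7SF2 was called higher in each, at 0.14 and 0.21 (edgeR adjusted p = 0.00904 and 7.09e-05). FASN went from 0.09 to -0.06 with the length trend removed, where it was called lower (edgeR adjusted p = 0.0165).

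Across 16 other ways of scaling, filtering, testing or leaving out a library, 8 of the 19 genes that fell were called lower in each: ACAT2, HMGCS1, PMVK, MVD, IDI1, LSS, HSD17B7 and INSIG1. Their log2 differences ranged from -0.40 to -0.14 for ACAT2, -0.49 to -0.22 for HMGCS1, -1.06 to -0.60 for PMVK, -0.57 to -0.27 for MVD, -0.42 to -0.19 for IDI1, -0.51 to -0.26 for LSS, -0.48 to -0.17 for HSD17B7 and -0.60 to -0.36 for INSIG1. FDFT1, SCD and ELOVL6 were called lower in all but the test on TPM. None of the 4 genes that rose was called higher in all 16, and SC5D, SCAP and STARD4 lost the call in at least 7 of them. CYP51 was not called in any of the 16. DESeq2 called 17 of the 28 lower and 1 higher, against 16.7% and 15.8% of all genes, and edgeR with effective lengths as an offset called 17 lower and 4 higher, against 23.9% and 22.5%. With limma on log2(FPKM + 1), 16 were lower, against 28.2%, and 0 higher, against 14.7%; 0 were higher at an unadjusted p under 0.05 too. On log2(TPM + 1) limma called 9 lower and 7 higher, against 12.6% and 39% of all genes.

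**Figure D4:**
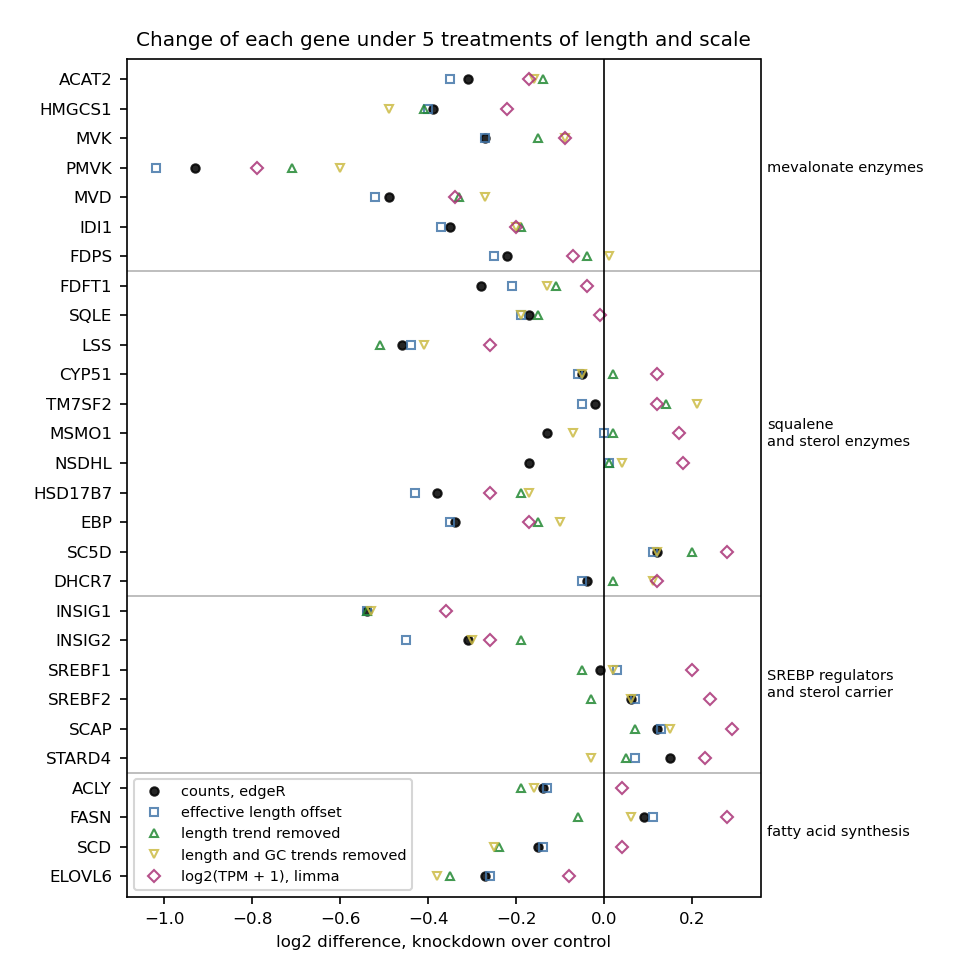
Log2 difference of each gene (horizontal axis) from counts by edgeR, with an effective length offset, with the length trend removed, with length and GC trends removed, and from limma on log2(TPM + 1), each with its own symbol. For INSIG1, HMGCS1 and LSS all 5 symbols lie at or below -0.22, and for MSMO1, NSDHL and FASN the symbols lie on both sides of 0.

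The lengths of the transcripts counted for a gene, weighted by their abundance, changed in a few genes. NSDHL had weighted lengths of 1472 and 1455 bases in control and 1300 and 1295 bases in knockdown libraries, a change of -11.3%. MSMO1 changed by -8.36% and FDFT1 by -5.54%, all with no overlap between the groups, while STARD4 changed by 6.26%. Such shortening of at least 5% was seen in 3 of the 28 genes and in 4.94% of all genes tested, and such lengthening in 1 of the 28 and in 3.85%. With effective lengths as an offset, which takes these changes into account, NSDHL was at 0.01 and MSMO1 at 0.00, and neither was called.

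The 6 lists of other lipid genes stood near the background: of 92 tested genes 22 rose (23.9%) and 19 fell (20.7%), against 22.7% and 23.8% of all genes tested. Of 10 tested genes for SREBP processing and sterol sensing 2 rose and 1 fell, with a median of 0.05. TMED2, a cargo receptor of transport vesicles, rose (log2 difference 0.19, edgeR adjusted p = 5.25e-14), as did SEC23A, a vesicle coat protein (0.11, edgeR adjusted p = 0.00463, not called by DESeq2 or with the length trend removed), and RNF145, a sterol-responsive ubiquitin ligase, fell (-0.27, edgeR adjusted p = 5.05e-11). Of 12 genes on the isoprenoid branches 3 rose and 2 fell, with a median of 0.00. FNTA, a subunit of protein prenyltransferases, and GGPS1, which makes geranylgeranyl diphosphate, were at 0.27 and 0.19, and RABGGTB, a subunit of the enzyme that prenylates Rab proteins, was at -0.23 (edgeR adjusted p = 3.45e-08, 0.00349 and 1.6e-05). DHDDS, for dolichol, was at 0.16 and COQ2, for ubiquinone, at -0.21 (edgeR adjusted p = 0.0193 and 0.000394). With the length trend removed GGPS1 (0.09, edgeR adjusted p = 0.247), RABGGTB (-0.05, 0.386) and COQ2 (-0.09, 0.199) were not called, and DESeq2 did not call GGPS1 (adjusted p = 0.0774) or DHDDS (0.176).

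Among 19 genes for sterol transport, storage and efflux 5 rose and 6 fell, with a median of 0.01. NPC1 and NPC2, which pass cholesterol out of lysosomes together, moved in opposite directions. NPC1 had 146 and 141 CPM in control and 166 and 169 CPM in knockdown libraries (log2 difference 0.23, edgeR adjusted p = 9.72e-10), and NPC2 had 426 and 432 CPM against 315 and 321 CPM (-0.43, edgeR adjusted p = 5.8e-39). With the length trend removed NPC1 was at 0.18 and NPC2 at -0.25, both called. SCARB1, a receptor that takes up cholesterol from HDL, was at 0.19 and the lipid transfer proteins OSBPL9 and OSBPL2 were at 0.21 and -0.23, all called. STARD5, a sterol-binding relative of STARD4, had 3.86 and 5.23 CPM against 2.4 and 2.62 CPM (-0.85, edgeR adjusted p = 0.00018).

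Of 19 genes for the elongation, desaturation and activation of fatty acids 5 rose and 2 fell, with a median of 0.00. ELOVL2, an elongase of polyunsaturated fatty acids, had 9.67 and 10.2 CPM in control and 15.6 and 17.6 CPM in knockdown libraries, a log2 difference of 0.74 (edgeR adjusted p = 2.33e-10) and opposite in sign to ELOVL6. The dehydratases HACD2 and HACD3 rose by 0.32 and 0.19, and ACSL3 and ACSL4, which activate fatty acids, were at -0.22 and -0.08 (called by edgeR). Of 16 genes that supply acetyl-CoA, citrate and NADPH 3 rose and 7 fell, with a median of -0.06. PGD, an NADPH-producing enzyme of the pentose phosphate pathway, fell from 373 and 374 CPM to 256 and 268 CPM (-0.51, edgeR adjusted p = 3.86e-44). ACAT1, a mitochondrial enzyme of ketone body metabolism, was at -0.41, and CS and ACO1, which make and convert citrate, were at 0.23 and 0.14, all called. Of 16 AMPK and lipogenic regulators 4 rose and 1 fell, with a median of 0.04. NFYC, a subunit of the factor that binds NF-Y boxes, was at 0.23, SP1 at 0.21, and PRKAA1, a catalytic subunit of AMPK, at 0.15. SP1 was not called with the length trend removed (0.09, edgeR adjusted p = 0.133), and DESeq2 did not call PRKAA1 (adjusted p = 0.149). MID1IP1, a helper of fatty acid synthesis, was at -0.32 in counts, at -0.15 with the length trend removed (edgeR adjusted p = 0.0911) and at 0.14 with effective lengths as an offset.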

How the data were processed

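Per the labels' protocols, RNA was extracted with TRIzol and sequenced on an MGI platform, and the authors filtered reads with SOAPnuke 2.1.0, aligned them with HISAT2 2.2.1 to Sscrofa 11.1, mapped them to transcripts with bowtie2 2.3.5 and counted them with RSEM 1.3.3. The deposited tables give expected counts, which RSEM shares among loci, and the authors' FPKM and TPM, both scaled by transcript length. The other columns the authors deposited are transcript and effective lengths in bases.

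Expected counts were rounded and tested with edgeR 4.0.16 in R 4.3.3 (TMM, filterByExpr with minimum count 10 and minimum total 15, two-sided quasi-likelihood test, Benjamini-Hochberg over all 15763 genes, called at an adjusted p under 0.05). Between 83.7% and 84.7% of the nonzero counts were whole. Alternatives were DESeq2 1.42.0, other scalings, no filter, limma 3.58.1 on log2(FPKM + 1), log2(FPKM + 0.1) and log2(TPM + 1), length and GC offsets (mgcv 1.9.3), a replicate block and leaving out each library. The TPM test was chosen after seeing the data. Scripts were tested on simulated data. An exact permutation test of 2 against 2 libraries cannot pass the threshold, so tests rest on a spread pooled over genes.

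The 28 genes and all lists were chosen with earlier results of these data known. Every one of the 28 was named, and in each other lipid list up to 3 called genes in each direction, ranked by p, whose mean FPKM reached 1 in either group, apart from a few items not reported here. The authors' own list of changed genes was not used here. The 2 libraries of a group differed by more than sampling noise (chi-square per degree of freedom 1.15 in control, 1.26 in knockdown), so none was counted as a repeat. The common biological coefficient of variation was small, 0.0129, and whether the spread between libraries is more than that of their preparation was not tested; the p-values measure only this spread. GC content came from the RefSeq gene models of the same build for 26265 genes.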

Additional observations from a re-analysis of the deposited data

How the results depend on the processing

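Of 448 refits of the 28 genes under 16 alternatives, 361 left the direction and the call as they were. In 56 the direction held and the call was lost, and in 4 the direction held and a call was gained. The other 27 turned the sign, some of them with a change of call. The cause of these changes was not tested. The count of all genes called was 7319, and 4783 with DESeq2 and 4283 with limma on log2(FPKM + 1) without a filter. By the main edgeR test 4 of the 28 genes were called higher. The number was 1 with DESeq2 and 2 without a filter or with the length trend removed. It was 7 on TPM and 0 in the 3 limma tests on FPKM. These were not always the same genes. With the length trend removed they were SC5D and TM7SF2, and on TPM they included NSDHL, SREBF1 and SREBF2. The 19 lower genes became 9 on TPM and 17 to 19 when a library was left out. ZBTB16 was not called by DESeq2 (-0.36) or on TPM (-0.11). On TPM the sign turned for CYP51, TM7SF2 and DHCR7 (each 0.12), MSMO1 (0.17), NSDHL (0.18), SREBF1 (0.20), ACLY and SCD (each 0.04), ACSL4 (0.11) and MID1IP1 (0.30). With effective lengths it turned for MSMO1 (0.00), NSDHL (0.01), SREBF1 (0.03), DHDDS (-0.01) and MID1IP1 (0.14). With the length trend removed it turned for CYP51, MSMO1 and DHCR7 (each 0.02), TM7SF2 (0.14), NSDHL (0.01), SREBF2 (-0.03) and FASN (-0.06). With length and GC trends removed it turned for FDPS (0.01), TM7SF2 (0.21), NSDHL (0.04), DHCR7 (0.11), SREBF1 (0.02) and STARD4 (-0.03). In the FPKM tests it turned for DHDDS (-0.05 and -0.06), MID1IP1 (0.08 and 0.09) and PRKAA1 (-0.01). Leaving out a library turned SREBF1 (0.01 without control replicate 2, 0.05 without knockdown replicate 2; range -0.07 to 0.05) and DHCR7 (0.00 without knockdown replicate 2; range -0.08 to 0.00).

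Libraries with the same replicate number showed no shared deviation: their deviations correlated at 0.00036 over 15763 genes. This does not show whether they were prepared as pairs. With a replicate block, all genes called numbered 7480, and of the 28 genes 4 were higher and 19 lower. Depth limits the genes of few counts, PMVK with 103 to 215 and INSIG2 with 315 to 395 per library.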
